A study of Eonycteris spelaea and Mus musculus with 51 samples.

Results

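Lung and skeletal muscle of untreated mice were compared by RNA sequencing, over all genes, to set out what separates the tissues and how much RNA of the heat shock and other stress genes each holds before any heat. The comparison takes 6 of the 51 libraries of the study: 3 of lung and 3 of muscle, each from control mice (Mus musculus) at baseline. The study as a whole sampled blood, lung and muscle of mice and of a bat, in control animals, after 1 h of heat shock, and after that heat shock and 4 h of recovery. The control mice received no heat and carry no allele or agent named in the labels. The labels give neither strain, age nor sex, nor which muscle was taken, nor whether a lung and a muscle library with the same number come from 1 animal. Each replicate is a separately labelled library of its tissue, so p-values measure the spread between these libraries.

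Gas exchange in the lung rests on flat alveolar type 1 cells and on surfactant-secreting type 2 cells laid over a dense capillary bed, with club and ciliated cells lining the airways. Skeletal muscle consists mostly of multinucleated fibres packed with sarcomeres, which contract when calcium leaves the sarcoplasmic reticulum and which draw on glycogen and mitochondria for ATP. Every cell keeps molecular chaperones at hand. HSP70 and HSP90 fold and refold client proteins with the help of co-chaperones, small heat shock proteins hold unfolding proteins, the chaperonins enclose them, and separate sets serve the mitochondrion and the endoplasmic reticulum. Heat shock factors raise many of these genes under stress, so the resting levels are where each tissue starts from.

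The libraries held 18339094, 17716399 and 27367824 counts in lung and 26304138, 28804930 and 30709829 counts in muscle. A few genes took much of the muscle counts: the 10 most abundant genes made up 9.77 to 11.5% of counts in lung and 30.2 to 38.1% in muscle, and titin (Ttn) alone held 0.0589 to 0.298% in lung and 14.9 to 19.7% in muscle. Levels are therefore given as CPM, the counts of a gene relative to the total of its library, scaled with TMM, a trimmed mean of gene-wise ratios, whose factors were 1.42 to 1.45 in lung and 0.579 to 0.767 in muscle. A log2 difference is lung minus muscle on that scale, and a gene was called at an edgeR adjusted p under 0.05. Libraries of 1 tissue correlated at 0.964 to 0.986 across genes and libraries of different tissues at 0.678 to 0.738 (Pearson, log2 CPM), and none was a copy of another. Lung library 1 stood apart by its skeletal muscle transcripts. Its Acta1 level, of skeletal actin, was 197 CPM, against 0.119 and 0.383 CPM in lung libraries 2 and 3. Some results on muscle genes, among them the fast fibre, slow fibre and sarcomere lists, are therefore also given without it. In both tissues library 3 carried Xist and no counts of Y-linked genes, and libraries 1 and 2 the reverse. Muscle library 3 also stood apart, with the lowest levels of fat and immune cell genes among the muscle libraries.

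Of 19511 genes tested, 6306 were higher in lung (32.3%) and 6147 were lower in lung (31.5%), so 63.8% were called in all. Differences shown to exceed 2-fold (glmTreat) covered 3126 genes higher in lung (16.0%) and 3014 lower in lung (15.4%), 31.5% of genes together. The 3 lung libraries did not overlap with the 3 muscle libraries for 71.8% of genes. With most genes called, membership of a called set says little, and the gene groups below are read by size and by direction. The median log2 difference over all genes was 0.0571. The direction of modest differences rests on the scaling. With library size alone every value moves up by about 1.04 on the log2 scale, the all-gene median becomes 1.08, and 12380 genes are called higher in lung and 2578 lower. The share of calls that are higher in lung is then 82.8%, in place of 50.6%. Calls that held under TMM, median-ratio, upper-quartile and library-size scaling covered 6139 genes higher in lung (31.5%) and 2578 lower (13.2%). Counts with library size alone are given beside the groups below whose balance of calls turns with it.

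**Figure D1:**
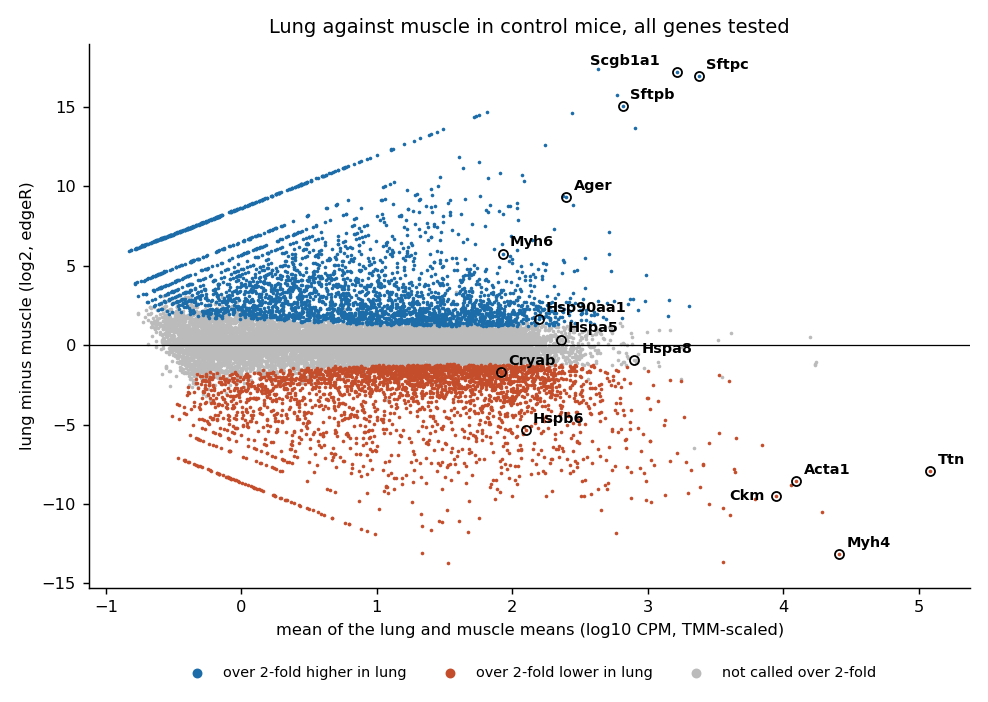
Each point is a gene, with the mean of the tissue means (log10 CPM) across and the log2 difference, lung minus muscle, upwards; the blue points are the 3126 genes over 2-fold higher in lung and the red points the 3014 over 2-fold lower. Surfactant and secretory genes such as Sftpc lie at the top right and sarcomere genes such as Ttn and Myh4 at the bottom right, and the straight lines of points are genes with no or very few counts in a tissue.

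Transcripts that mark the alveolus were among the largest positive differences. All 13 type 2 cell genes were higher in lung, with a median log2 difference of 13.7, or 11.1 with genes at 0 counts in muscle set to their bound. Sftpc, for surfactant protein C, a product of type 2 cells, had 4583, 5031 and 4780.4 CPM in lung and 0.0995, 0 and 0 CPM in muscle. Muscle held 2 Sftpc counts over all 3 libraries, and lung exceeded muscle 144000-fold (95% counting interval 39700 to 1190000). Surfactant proteins B and A, which spread and protect the surfactant film, followed the same pattern. Sftpb had 1283, 1354 and 1309 CPM in lung and 0, 0.0453 and 0.0563 CPM in muscle, and Sftpa1 had 1105, 1219.8 and 1261 CPM in lung and 0.0498, 0 and 0 CPM in muscle. Slc34a2, the phosphate transporter of type 2 cells, had 1584, 1571 and 1643 CPM in lung and 0.0995, 0.0453 and 0.225 CPM in muscle (log2 difference 13.67 ± 0.39 SE, edgeR adjusted p = 6.2e-07, and 14.4 without muscle library 3). In bulk tissue, fewer cells of a type and less RNA per cell cannot be told apart, here and in every cell type list that follows.

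All 10 type 1 cell genes were higher in lung as well (median 7.38). Rtkn2 had 417, 542 and 460.0 CPM in lung and 0.846, 0.589 and 0.676 CPM in muscle (log2 difference 9.39 ± 0.22 SE, edgeR adjusted p = 5e-07), and the aquaporin gene Aqp5 had 97.01, 112 and 104 CPM in lung and 0, 0 and 0 CPM in muscle, which puts lung at least 2080-fold higher against a floor of 3 counts over the muscle libraries. Not every gene on the list was absent from muscle. Emp2, a membrane protein gene, had 592, 773 and 666 CPM in lung and 14.1, 15.8 and 14.9 CPM in muscle (log2 difference 5.50 ± 0.17 SE, edgeR adjusted p = 8.7e-07), so its levels were separated by a clear gap while muscle kept a measurable level. Sec14l3, the gene with the largest fitted difference among genes of at least 20 CPM, had 829, 896 and 870.4 CPM in lung and 0, 0 and 0 CPM in muscle and was at least 17300-fold higher.

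Airway genes were higher by similar amounts. All 9 club and secretory genes were higher in lung (median 8.17). Scgb1a1, the club cell secretoglobin, had 3834, 2576 and 3389 CPM in lung and 0, 0.0453 and 0 CPM in muscle, and lung exceeded muscle 197000-fold (95% counting interval 35400 to 7800000). The libraries agreed less on airway genes than on alveolar ones. The mucin gene Muc5b had 218, 71.003 and 221 CPM in lung and 0.846, 0.363 and 0.450 CPM in muscle, and Scgb3a1 had 34.02, 6.25 and 50.01 CPM in lung and 0.199, 0.0906 and 0 CPM in muscle, so lung library 2 was lowest in both. Of 12 ciliated cell genes 11 were higher in lung, with a median of 5.63, or 5.31 with genes at 0 set to their bound. Among them were Foxj1, the transcription factor of motile cilia (7.41 ± 0.43 SE, and 8.55 without muscle library 2), and the axonemal dynein gene Dnah5, which had 101, 67.1 and 92.2 CPM in lung and 0.0498, 0.0453 and 0 CPM in muscle. The exception was Mlf1, with 6.07, 3.38 and 4.78 CPM in lung and 183, 199.8 and 320.3 CPM in muscle (log2 difference -5.62 ± 0.32 SE, edgeR adjusted p = 5.4e-06).

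Vessel genes, which mark the capillaries of both tissues, differed by less. All 16 endothelial genes were higher in lung (median 1.95), and 14 of them by over 2-fold. Tek, the angiopoietin receptor, had 254, 278 and 289 CPM in lung and 58.2, 62.9 and 49.9 CPM in muscle (log2 difference 2.26 ± 0.13 SE, edgeR adjusted p = 5.6e-06). Vwf, for von Willebrand factor, had 486, 625 and 557 CPM in lung and 87.3, 118 and 74.2 CPM in muscle, and Ramp2, a receptor partner of adrenomedullin signalling, was also higher (2.84 ± 0.14 SE). The 5 mesothelial genes, which mark the pleural lining, were all higher (median 5.88), with Msln at 31.9, 27.1 and 27.5 CPM in lung and 0.547, 0.453 and 0.450 CPM in muscle. Among the most abundant lung-enriched genes of any kind were Epas1, the hypoxia-inducible factor HIF-2 alpha, at 2287, 2695 and 2586 CPM in lung and 345, 384 and 329 CPM in muscle, and Ptprb, an endothelial phosphatase gene, at 1209, 1564 and 1448 CPM in lung and 309, 327 and 257 CPM in muscle. Macf1, Sptbn1, Lyz2 and Hba-a1 were among them too, at means of 3415, 2206, 1854 and 1377 CPM in lung. Their muscle means were 622, 623, 88.3 and 187 CPM.

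Of 18 transcription factors of lung development, 17 were higher in lung. Nkx2-1, the factor that specifies lung epithelium, had 115, 114 and 109.8 CPM in lung and 0, 0 and 0 CPM in muscle and was at least 2250-fold higher. Foxf1, which acts in lung mesenchyme and endothelium, had 99.04, 190.4 and 123 CPM in lung and 0.448, 0.363 and 0.0563 CPM in muscle (log2 difference 8.82 ± 0.46 SE, edgeR adjusted p = 3.9e-06). Tbx2 had 203, 239.9 and 241 CPM in lung and 9.65, 8.29 and 9.63 CPM in muscle (log2 difference 4.63 ± 0.14 SE, edgeR adjusted p = 7.7e-07). Sox9 was the exception, at 0.679, 0.318 and 0.639 CPM in lung and 2.19, 4.58 and 3.15 CPM in muscle.

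**Figure D2:**
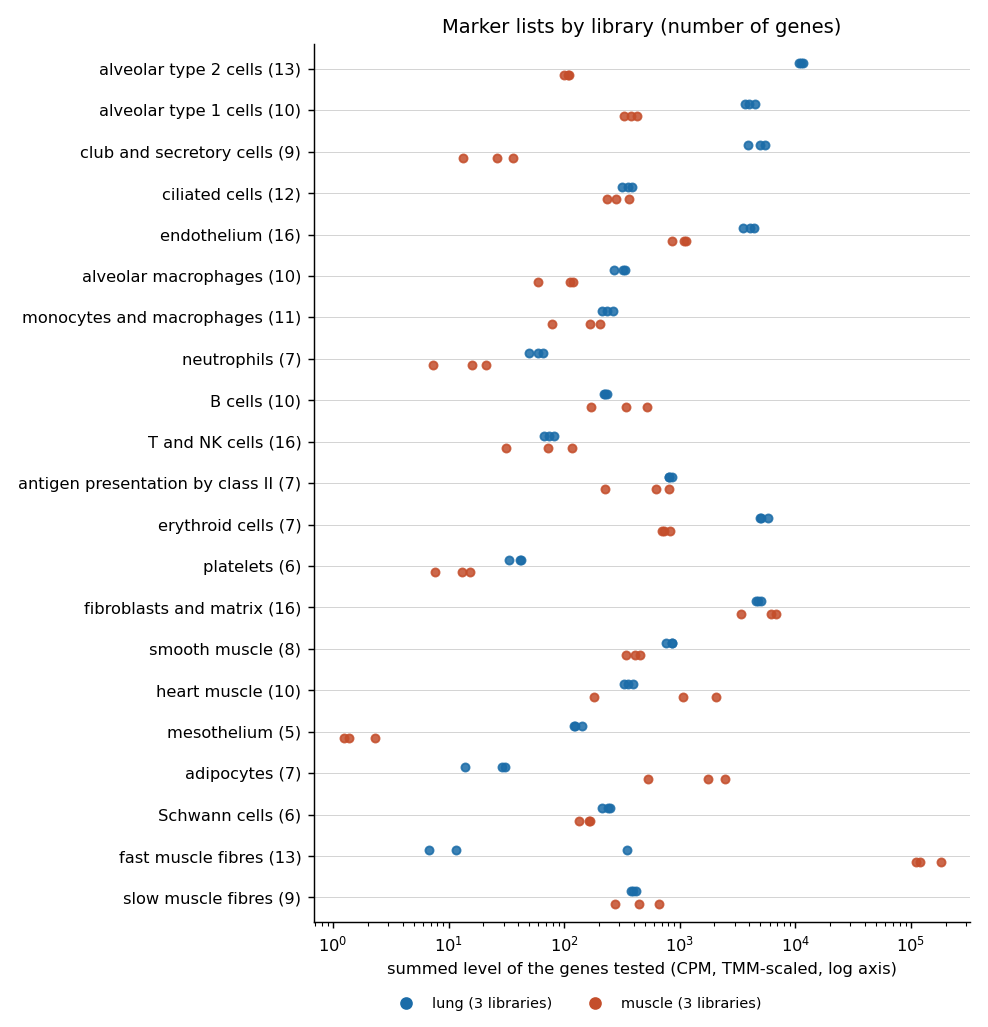
Each row is a marker list with the number of its genes tested in brackets, and each point is the summed CPM of those genes in 1 library on a log axis, lung (blue) above muscle (red). Alveolar, club and mesothelial sums are far higher in lung, fast fibre and adipocyte sums far lower, and 1 lung library (library 1) lies well to the right of the others for fast fibres.

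The contractile machinery made up the other extreme. All 25 sarcomere genes (median -7.50), all 13 fast fibre genes (median -10.0) and all 14 genes of excitation-contraction coupling (median -7.55) were lower in lung, the first and last groups all by over 2-fold. Myh4, the fastest of the adult myosin heavy chains, had 17.01, 0 and 0 CPM in lung and 45910.1, 40165 and 69212 CPM in muscle. Acta1 had 197, 0.119 and 0.383 CPM in lung and 22621, 18968 and 33202 CPM in muscle. In both, lung library 1 lay far above lung libraries 2 and 3 and far below every muscle library. Ttn, the spring that spans the sarcomere, had 2059, 416 and 484 CPM in lung and 194987, 195416 and 339861 CPM in muscle (log2 difference -7.95 ± 0.99 SE, edgeR adjusted p = 0.00026, and -9.08 without lung library 1). Ryr1, the calcium release channel, had 43.9, 0.677 and 0.894 CPM in lung and 9602, 9904 and 17574 CPM in muscle. Des, the intermediate filament desmin that smooth muscle also makes, kept a higher floor in lung, with 133, 79.002 and 87.1 CPM in lung and 2175, 2439 and 3154 CPM in muscle (log2 difference -4.70 ± 0.31 SE, edgeR adjusted p = 9.8e-06). Clcn1, the chloride channel of the fibre membrane, was even between lung libraries at 1.43, 0.796 and 1.20 CPM in lung and 249, 282 and 389 CPM in muscle.

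Fast and sarcomere genes were highest in lung library 1 among the lung libraries for 37 of 38 genes. The median gene stood at 0.952% of its muscle mean in that library and at 0.068% in the mean of the others. Without lung library 1 all 13 fast fibre genes were still called and their median log2 difference was -13.8, and all 25 sarcomere genes were called at a median of -8.45. The log2 difference of Acta1 was -8.56 ± 2.61 SE with all libraries and -16.5 without lung library 1, and that of Ryr1 was -9.67 and -13.9. With lung library 1 kept, 1 library fewer in muscle was enough to end some calls. Without muscle library 3, 10 of 13 fast fibre genes and 22 of 25 sarcomere genes were called, and Myh4, Acta1 and Ryr1 were not (adjusted p = 0.0673, 0.163 and 0.0661). Without both libraries numbered 3, a choice made after seeing the data, 5 of 13 and 19 of 25 were called. The muscle transcripts of lung library 1 were not those of the sampled muscle in the same proportions. Myh8, the perinatal myosin heavy chain, had 211, 0 and 0 CPM in lung and 5.52, 7.98 and 7.54 CPM in muscle, so that library held more of it than the muscle libraries did. Myh8 shares 9.85 to 10.1% of its 50-base coding runs with Myh4 and Myh1, and the files do not state how reads that fit several genes were counted. Lung library 1 held 5586 Myh8, 451 Myh4 and 3931 Myh1 counts. The muscle libraries held 111, 176 and 134 Myh8 counts beside 922500, 886330 and 1229458 Myh4 counts. Whether shared reads bear on the Myh8 level was not tested. The part of these transcripts in other results was not tested.

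Of 9 slow fibre genes 7 were lower in lung (median -2.85, and -5.02 with 7 lower without lung library 1), and their levels varied between muscle libraries. Myh7, the slow and cardiac beta myosin, had 21.2, 18.8 and 18.2 CPM in lung and 116, 225 and 36.8 CPM in muscle (log2 difference -2.70 ± 0.56 SE, edgeR adjusted p = 0.0038, and -1.98 without muscle library 2), lowest in muscle library 3. Myl2 had 0.0754, 0.0796 and 0.0766 CPM in lung and 19.4, 29.5 and 6.70 CPM in muscle. Atp2a2, the calcium pump of slow and heart muscle that many other cells also use, was higher in lung (359.9, 367 and 352 CPM in lung and 212, 276 and 129.6 CPM in muscle, log2 difference 0.80 ± 0.25 SE, edgeR adjusted p = 0.025), a call that ended without any 1 of the lung libraries (adjusted p = 0.0555 to 0.0691). Genes of the neuromuscular junction were lower for 8 of 10 (median -4.77). Chrne, the adult subunit of the acetylcholine receptor, had 0.226, 0.159 and 0.179 CPM in lung and 18.4, 17.2 and 22.7 CPM in muscle. Lrp4 (2.41) and Colq (0.80) were higher in lung, though Lrp4 is the agrin receptor and Colq anchors acetylcholinesterase. All 12 muscle transcription factors were lower in lung. Among them Mef2c, which endothelial cells also use, had 134, 94.9 and 111 CPM in lung and 1011, 851 and 1528 CPM in muscle (log2 difference -3.32 ± 0.27 SE, edgeR adjusted p = 3e-05).

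Heart muscle genes ran the other way: 9 of 10 were higher in lung (median 4.42). Myh6, the atrial and adult mouse heart myosin, had 151, 161 and 191 CPM in lung and 2.79, 4.80 and 1.46 CPM in muscle (log2 difference 5.77 ± 0.38 SE, edgeR adjusted p = 1e-05). Myl7, the atrial light chain, had 11.2, 11.5 and 12.9 CPM in lung and 0, 0 and 0 CPM in muscle, at least 240-fold higher. Cardiac troponin T, Tnnt2, had 17.1, 17.4 and 19.97 CPM in lung and 0.647, 0.725 and 0.732 CPM in muscle, so the 3 lung libraries were even with each other and none overlapped with muscle. The exception was Actc1, cardiac actin, with 80.03, 47.9 and 62.2 CPM in lung and 1054, 166 and 2056 CPM in muscle (log2 difference -4.11 ± 0.81 SE, edgeR adjusted p = 0.003), and its muscle libraries differed widely from each other. It was not called without muscle library 3 (-3.24, adjusted p = 0.0601). Lung library 1 was not above the others for Myh6, Myl7 or Tnnt2.

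Genes that record body position also separated the tissues. Of 27 Hox genes tested, 16 were lower in lung and 7 were higher. Hoxc10, a gene of posterior and hindlimb levels, had 0, 0 and 0 CPM in lung and 40.6, 36.5 and 52.7 CPM in muscle, and lung was at least 1290-fold lower. Hoxa9 had 0, 0 and 0 CPM in lung and 12.6, 11.6 and 13.2 CPM in muscle and was at least 375-fold lower. Grouped by cluster after their values were seen, all 12 genes tested of the Hoxc and Hoxd clusters were lower, and the 7 higher genes belonged to the Hoxa and Hoxb clusters, where 4 others of the 15 tested were lower. Hoxa5, which is needed for lung and tracheal development in the mouse, had 23.4, 22.2 and 26.2 CPM in lung and 7.37, 6.66 and 5.52 CPM in muscle (log2 difference 1.88 ± 0.15 SE, edgeR adjusted p = 2.6e-05), and Hoxb3 had 17.9, 21.7 and 22.3 CPM in lung and 4.08, 4.31 and 3.77 CPM in muscle (log2 difference 2.35 ± 0.15 SE, edgeR adjusted p = 8.6e-06). Tbx4 and Tbx5, which act in lung buds and in limb buds, were both higher in lung, Tbx4 at 63.3, 74.1 and 77.8 CPM in lung and 2.49, 3.99 and 1.58 CPM in muscle and Tbx5 at 52.01, 58.1 and 64.3 CPM in lung and 1.84, 0.997 and 0.0563 CPM in muscle. Lbx1, a factor of migrating limb muscle precursors, had 0.113, 0 and 0 CPM in lung and 73.95, 73.05 and 95.98 CPM in muscle.

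Erythroid and neutrophil genes leaned to lung without being specific to it. All 7 erythroid genes were higher in lung (median 2.76). Hbb-bs, adult beta globin, had 1596, 1890.0 and 1524 CPM in lung and 244, 270.4 and 224 CPM in muscle (log2 difference 2.76 ± 0.18 SE, edgeR adjusted p = 1.1e-05), and globin took 0.697 to 0.814% of counts in lung and 0.0397 to 0.0623% in muscle, beside 60.6 and 54.2% in the control blood libraries of the same table. Neutrophil genes were higher for 6 of 7 (median 3.35), with Csf3r at 18.9, 21.3 and 25.3 CPM in lung and 2.99, 1.99 and 1.41 CPM in muscle. Macrophage genes were more mixed. Of 10 alveolar macrophage genes 6 were higher in lung and 1 was lower (median 4.12). Of 11 monocyte and macrophage genes 6 were higher and 0 lower (median 0.883). Without muscle library 3 these were 6 higher and 3 lower, and 7 higher and 3 lower. Chil3, the chitinase-like protein of mouse alveolar macrophages, had 145, 205 and 208 CPM in lung and 0.597, 0.408 and 0.225 CPM in muscle (log2 difference 8.79 ± 0.30 SE, edgeR adjusted p = 1.1e-06). Pparg, which alveolar macrophages and adipocytes both use, was lower in lung (6.30, 7.52 and 6.44 CPM in lung and 33.8, 43.3 and 10.7 CPM in muscle, log2 difference -2.12 ± 0.45 SE, edgeR adjusted p = 0.0042).

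Lymphocyte genes set muscle library 3 apart from the other muscle libraries more than they set the tissues apart. Of 10 B cell genes 1 was called (none with library size alone), Cr2, lower in lung at 13.4, 15.1 and 9.42 CPM in lung and 64.000, 44.1 and 17.96 CPM in muscle (log2 difference -1.74 ± 0.42 SE, edgeR adjusted p = 0.008). Of 16 T and NK cell genes 5 were higher, a share near the 32.3% of all genes. Among them was Gzma, a granzyme of cytotoxic cells, at 5.96, 7.20 and 6.46 CPM in lung and 0.946, 0.408 and 0.507 CPM in muscle. Leaving out muscle library 3 changed this picture: 8 of 10 B cell genes and 8 of 16 T and NK cell genes were then lower in lung, and the 5 higher calls of the T and NK cell list were unchanged in number. Of 7 class II genes 1 was higher, and without muscle library 3 these were 3 higher and 1 lower. Cd74, the invariant chain, had 379, 356 and 366 CPM in lung and 309.5, 229.7 and 83.7 CPM in muscle, with an edgeR adjusted p of 0.11. Muscle library 3 was the lowest library for Cr2 and Cd74 among the muscle libraries.

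Fat genes were lower in lung for 7 of 7 (median -6.22). Adipoq, the adipocyte hormone adiponectin, had 2.34, 1.03 and 2.81 CPM in lung and 185, 261 and 61.6 CPM in muscle (log2 difference -6.33 ± 0.64 SE, edgeR adjusted p = 8.8e-05), and muscle library 3 again held the least. Fibroblast and matrix genes split. Of 16 genes 7 were higher in lung and 6 were lower, beside 32.3% and 31.5% of all genes. With library size alone 10 were higher and 2 lower. Inmt had 366, 523 and 500.3 CPM in lung and 11.2, 15.2 and 6.87 CPM in muscle (log2 difference 5.38 ± 0.33 SE, edgeR adjusted p = 7.5e-06), and Mfap4, an elastic fibre protein gene, had 148, 235 and 169.7 CPM in lung and 5.08, 4.40 and 4.28 CPM in muscle (log2 difference 5.33 ± 0.22 SE, edgeR adjusted p = 1.5e-06). Dcn, for decorin, had 70.1, 49.2 and 60.9 CPM in lung and 363, 374 and 266 CPM in muscle (log2 difference -2.48 ± 0.19 SE, edgeR adjusted p = 2.4e-05), and Col1a1, fibrillar collagen I, had 553, 519.7 and 456 CPM in lung and 1519, 1794 and 756 CPM in muscle (log2 difference -1.41 ± 0.31 SE, edgeR adjusted p = 0.0052). Of 8 smooth muscle genes 6 were higher, with Mylk, the kinase that starts smooth muscle contraction, at 355, 401 and 362 CPM in lung and 79.7, 70.97 and 53.3 CPM in muscle.

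Genes of energy metabolism were mostly lower in lung. All 22 citric acid cycle genes (median -3.07), 20 of 22 fatty acid oxidation genes (median -2.39) and 68 of 71 nuclear genes of the respiratory chain (median -3.10) were lower, and library size alone left 21, 19 and 68 of these calls. Cox5a, a subunit of cytochrome oxidase, had 14.7, 14.5 and 13.97 CPM in lung and 245, 246 and 292 CPM in muscle (log2 difference -4.18 ± 0.13 SE, edgeR adjusted p = 8.2e-07). Acadvl, the first enzyme of very long chain oxidation, had 36.9, 36.7 and 35.9 CPM in lung and 267, 269 and 298 CPM in muscle (log2 difference -2.93 ± 0.11 SE, edgeR adjusted p = 1.2e-06). Cox4i2, the lung form of subunit 4, was the only respiratory chain gene of the 71 called higher in lung, at 13.6, 14.7 and 14.4 CPM in lung and 1.34, 1.40 and 1.24 CPM in muscle (log2 difference 3.41 ± 0.16 SE, edgeR adjusted p = 2.4e-06).

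Glycolysis and glycogen genes were lower in lung for 24 of 32 (median -4.34) and higher for 3. Gpd1, which passes cytosolic reducing power to mitochondria, had 13.4, 10.8 and 11.6 CPM in lung and 751, 739.6 and 808 CPM in muscle (log2 difference -6.01 ± 0.17 SE, edgeR adjusted p = 6.1e-07). Tpi1, triosephosphate isomerase, had 40.96, 38.5 and 35.6 CPM in lung and 1616, 1517 and 2324 CPM in muscle. Hk1, Aldoc and Phkg2 were the 3 genes higher in lung, at log2 differences of 1.29, 1.77 and 0.43, though Phkg2 was not called without any 1 lung library or without muscle library 1 (adjusted p = 0.0615 to 0.129). Their counterparts Hk2 (-4.23 ± 0.17 SE), Aldoa (-6.30 ± 0.42 SE) and Phkg1 (-8.53 ± 0.45 SE) were lower.

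The same contrast was drawn for pairs of related genes. In 33 pairs of a muscle form and a form used elsewhere, the muscle form was lower in lung in 33, and in 18 of them the other form was higher in lung as well. Each pair was chosen for its muscle form, so the first count and the direction of the shares below follow from the choice. The other forms were chosen as used outside muscle, which also favours the second count. That count is therefore not a fair match to the 32.3% of all genes that were higher in lung. Both counts are with TMM scaling. Some higher calls of the other form rest on single libraries. Actb was not called without lung library 2 (edgeR adjusted p = 0.0636), nor Eef1a1 without any 1 lung library (0.0547 to 0.0813). Within a library the share of a pair is free of the scaling. Per kb of exon, the muscle form made up a median of 12.9% of its pair in lung and 97.5% in muscle, and in all 33 pairs the 3 lung shares lay outside the 3 muscle shares. It was the larger of the pair in 4 of 33 pairs in lung and in 32 of 33 in muscle. The muscle creatine kinase Ckm made up 70.7, 9.25 and 14.8% of the Ckm and Ckb pair in lung and at least 99.9% in each muscle library, the high lung share again in lung library 1. Cpt1b, the muscle form of the carnitine transferase that admits fatty acids to mitochondria, was the exception in muscle, with 0.781 ± 0.0809% of its pair in lung and 12.1 ± 2.18% in muscle (SD, n = 3 each). Its counted level was low in both tissues, at 0.126 CPM per kb of exon in lung and 0.71 in muscle, beside 16 and 5.37 for Cpt1a. How reads that fit several genes were counted is not stated, and whether this lowered Cpt1b was not tested. Lung library 1 had the highest lung share in 29 of 33 pairs.

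The translation machinery was among these pairs. Eef1a2, the elongation factor 1 alpha of muscle and neurons, made up 0.788 ± 0.599% of its pair with Eef1a1 in lung and 73.7 ± 10.5% in muscle (SD, n = 3 each). Rpl3l, the ribosomal protein L3 of striated muscle, made up 0.61 ± 1.01% of its pair with Rpl3 in lung and 84.9 ± 6.72% in muscle (SD, n = 3 each). Eef1a2 had 15.2, 4.66 and 4.75 CPM in lung and 1581, 1392 and 2226 CPM in muscle (log2 difference -7.72 ± 0.62 SE, edgeR adjusted p = 2.8e-05, and -8.52 without lung library 1), and Rpl3l had 1.55, 0 and 0.0511 CPM in lung and 318, 289.8 and 457 CPM in muscle (log2 difference -9.47, and -13.3 without lung library 1, which held most of its lung counts). The first 60 coding bases of each gene are shown because these pairs encode closely related proteins, and reads can tell such genes apart only where their bases differ. They come from GENCODE M21 transcripts of mouse chromosomes 2 and 9 (Eef1a2, Eef1a1) and 17 and 15 (Rpl3l, Rpl3), 5′ to 3′ on the coding strand, with the bases that differ within a pair in capitals.
Eef1a2: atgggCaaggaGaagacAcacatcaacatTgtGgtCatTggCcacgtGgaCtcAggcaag
Eef1a1: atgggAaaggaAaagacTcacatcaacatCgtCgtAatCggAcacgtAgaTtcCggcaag
Rpl3l: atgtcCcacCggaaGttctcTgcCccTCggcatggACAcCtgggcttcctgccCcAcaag
Rpl3: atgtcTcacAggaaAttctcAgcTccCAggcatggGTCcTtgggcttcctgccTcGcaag
The first pair differed at 11 of the 60 bases and the second at 13. Over whole coding sequences, 30 of the 33 pairs shared no identical run of 50 bases. Those that did included Acta1 with Actb, at up to 2.6% of such runs, and Atp2a1 with Atp2a3, at up to 0.136%.

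**Figure D3:**
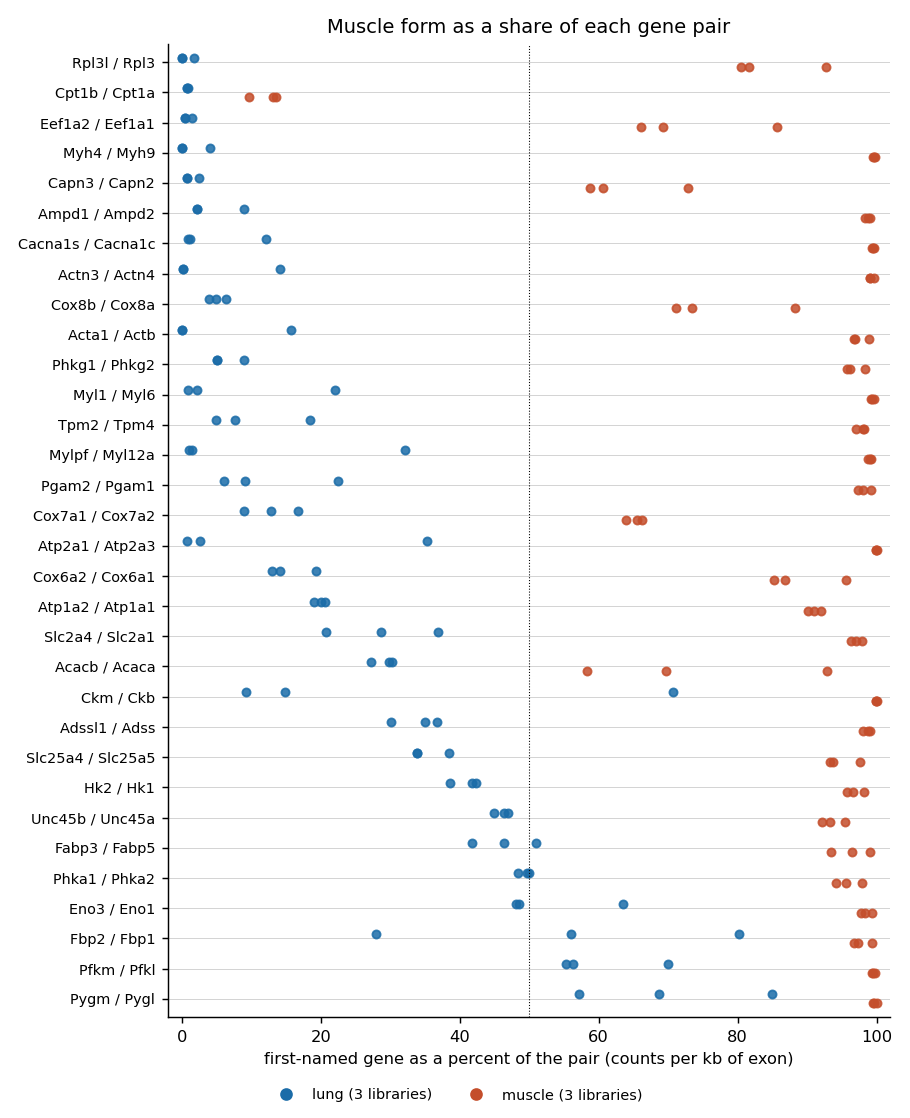
Each row is 1 of 32 pairs of related genes, and each point is the first-named (muscle) form as a percent of the pair's counts per kb of exon in 1 library, lung in blue above muscle in red. Muscle points lie near 100% for most pairs and lung points lie below them in every pair drawn, with the high lung share of Ckm in library 1.

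The main inducible heat shock genes were low in both tissues. Hspa1a, the heat-inducible HSP70, had 7.20, 20.2 and 7.59 CPM in lung and 16.2, 8.56 and 13.004 CPM in muscle, and its near-copy Hspa1b had 11.5, 23.3 and 8.05 CPM in lung and 12.99, 7.75 and 9.06 CPM in muscle. The tissues overlapped for both genes, and the edgeR adjusted p was 0.83 for Hspa1a and 0.28 for Hspa1b. Lung library 2 was highest for both. Their coding sequences share 82.4% of 50-base runs, so how the reads were split between them is uncertain. Hspa1l, another gene of this family, had 0.717, 1.07 and 0.536 CPM in lung and 14.03, 11.7 and 14.5 CPM in muscle (log2 difference -4.13 ± 0.27 SE, edgeR adjusted p = 1e-05).

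Of 12 HSP70 and HSP110 genes 4 were higher in lung and 4 were lower (7 and 1 with library size alone). Of all genes 32.3% were higher and 31.5% lower, so both shares of this list were near those of all genes. Hspa8, the constitutive HSP70, had 453, 632 and 538 CPM in lung and 1015, 802 and 1334 CPM in muscle (log2 difference -0.96 ± 0.23 SE, edgeR adjusted p = 0.0081). Its log2 difference was 0.10 with library size alone, so its direction rests on the scaling. Hspa4l, an HSP110 relative, had 96.7, 67.1 and 83.4 CPM in lung and 29.4, 22.2 and 17.8 CPM in muscle (log2 difference 1.83 ± 0.21 SE, edgeR adjusted p = 0.00018) and was higher under each scaling. Hspa2 (0.91 ± 0.29 SE), Hspa12b (0.58 ± 0.17 SE) and Hspa13 (0.37 ± 0.10 SE) were higher by less, and each of these 3 calls ended without 1 library. Hspa2 was not called without any 1 lung library or without muscle library 1 or 3 (adjusted p = 0.0514 to 0.0753), Hspa12b without lung library 2 (0.0552), and Hspa13 without lung library 3 (0.0574) or muscle library 1 (0.0681).

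The cytosolic HSP90 genes moved apart. Hsp90aa1, the stress-responsive form, had 294, 187 and 232 CPM in lung and 94.3, 75.6 and 61.7 CPM in muscle (log2 difference 1.62 ± 0.22 SE, edgeR adjusted p = 0.00037). Hsp90ab1, the constitutive form, had 650.5, 463 and 511 CPM in lung and 848, 707 and 1031 CPM in muscle (log2 difference -0.67 ± 0.21 SE, edgeR adjusted p = 0.023, and 0.38 with library size alone), and it was not called without lung library 2 (adjusted p = 0.0964) or lung library 3 (0.0897). Per kb of exon the Hsp90aa1 to Hsp90ab1 ratio, which needs no scaling, was 0.345, 0.308 and 0.346 in lung and 0.0848, 0.0816 and 0.0456 in muscle, with no overlap. The organelle forms also differed: Hsp90b1 of the endoplasmic reticulum was higher in lung (355, 302 and 336 CPM in lung and 180.3, 155 and 143 CPM in muscle, log2 difference 1.05 ± 0.14 SE, edgeR adjusted p = 0.00032), and Trap1 of mitochondria was lower (31.2, 37.5 and 31.6 CPM in lung and 104, 110.0 and 134 CPM in muscle, log2 difference -1.80 ± 0.14 SE, edgeR adjusted p = 2e-05).

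Small heat shock proteins were lower in lung as a group. All 7 tested of 9 listed were lower in lung (median -3.46), 6 of them under every scaling. Cryaa and Hspb9 did not pass the filter on low counts. Hspb6, HSP20, had 10.7, 2.91 and 4.37 CPM in lung and 227, 258 and 249 CPM in muscle (log2 difference -5.36 ± 0.47 SE, edgeR adjusted p = 4.4e-05). Hspb8, the partner of BAG3 in clearing misfolded filament proteins, had 26.9, 27.2 and 24.3 CPM in lung and 292, 233 and 313 CPM in muscle (log2 difference -3.42 ± 0.15 SE, edgeR adjusted p = 1.9e-06). Cryab, alpha B crystallin, which binds desmin and titin, had 41.5, 37.6 and 38.9 CPM in lung and 118, 123 and 139 CPM in muscle (log2 difference -1.68 ± 0.11 SE, edgeR adjusted p = 8.4e-06). Hspb3 had 0.0377, 0 and 0.0255 CPM in lung and 6.62, 5.85 and 8.05 CPM in muscle, nearly absent from lung. Hspb7 (-3.57 ± 0.31 SE) and Hspb2 (-3.46 ± 0.23 SE) were lower by a similar size. Hspb1, HSP27, differed least, at 91.8, 45.1 and 62.3 CPM in lung and 143, 115 and 138 CPM in muscle (log2 difference -0.99 ± 0.24 SE, edgeR adjusted p = 0.0085, and 0.05 with library size alone), and it was not called without muscle library 3 (adjusted p = 0.0804). For Hspb6, Hspb1 and Cryab, lung library 1, which held muscle transcripts, was the highest of the lung libraries. Without it all 7 genes were still lower, and the log2 difference of Hspb6 was -6.06.

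**Figure D4:**
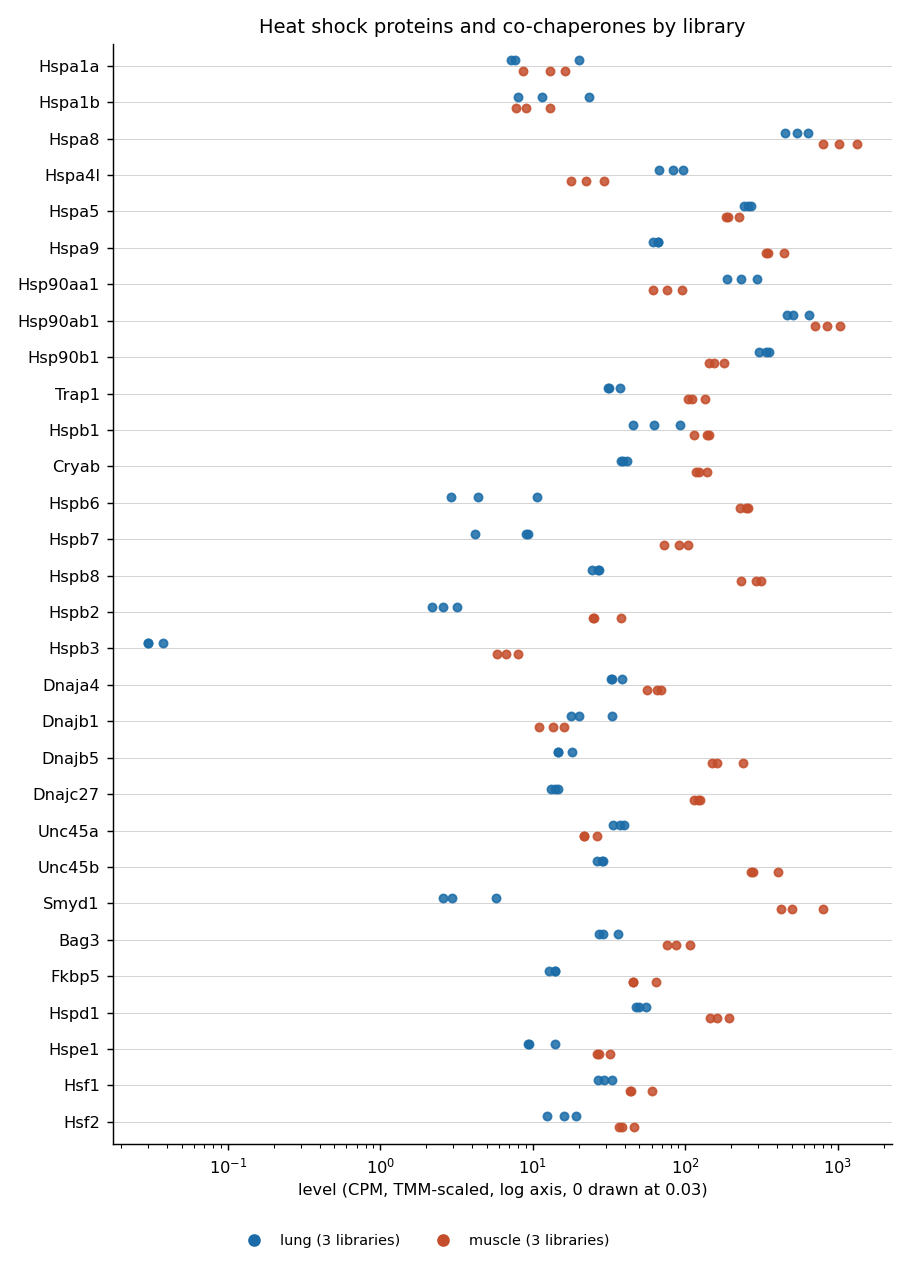
Each row is a heat shock protein, co-chaperone or heat shock factor gene and each point its level in 1 library (CPM, log axis), lung in blue above muscle in red, with 0 drawn at 0.03. Hspa1a and Hspa1b overlap between tissues, Hsp90aa1 and Hsp90b1 lie to the right in lung, and the small heat shock proteins, Smyd1 and Unc45b lie far to the right in muscle.

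Co-chaperones of muscle proteins were also far lower in lung. Unc45b, the myosin chaperone of striated muscle, had 26.4, 28.6 and 28.9 CPM in lung and 269.9, 276 and 406 CPM in muscle (log2 difference -3.50 ± 0.19 SE, edgeR adjusted p = 4.5e-06), while Unc45a, its general counterpart, was higher in lung (33.6, 39.6 and 37.5 CPM in lung and 21.7, 26.4 and 21.7 CPM in muscle, log2 difference 0.66 ± 0.13 SE, edgeR adjusted p = 0.0024). Smyd1, a methyltransferase that works with HSP90 on myosin, had 5.73, 2.59 and 2.94 CPM in lung and 502, 423 and 801 CPM in muscle (log2 difference -7.26 ± 0.44 SE, edgeR adjusted p = 7.3e-06). Itgb1bp2, melusin, had 14.97, 10.3 and 8.99 CPM in lung and 112, 106 and 126 CPM in muscle (log2 difference -3.33 ± 0.21 SE, edgeR adjusted p = 7.7e-06). Of all 21 HSP90 co-chaperones 17 were lower in lung and 1 was higher (median -0.852), against 5 lower and 8 higher with library size alone. Of 8 BAG proteins and HSP70 cofactors 7 were lower (3 under every scaling). Bag3, which pairs with HSPB8, had 26.97, 35.98 and 28.9 CPM in lung and 86.1, 75.6 and 108 CPM in muscle (log2 difference -1.55 ± 0.17 SE, edgeR adjusted p = 0.00014).

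DnaJ proteins, which hand clients to HSP70, went both ways. Of 27 genes 16 were lower in lung and 7 were higher, beside 31.5% and 32.3% of all genes. With library size alone 7 were lower and 14 higher. Dnajb5 had 14.7, 18.03 and 14.7 CPM in lung and 149.6, 162 and 239 CPM in muscle (log2 difference -3.54 ± 0.21 SE, edgeR adjusted p = 6.6e-06), and Dnajc27 had 14.7, 13.97 and 13.1 CPM in lung and 114, 121 and 126 CPM in muscle (log2 difference -3.11 ± 0.10 SE, edgeR adjusted p = 1e-06). Dnajb13, of sperm and cilia, had 2.98, 3.22 and 3.04 CPM in lung and 0.398, 0.317 and 0.0563 CPM in muscle (log2 difference 3.52 ± 0.46 SE, edgeR adjusted p = 0.00034). Dnajb1, the main heat-inducible DnaJ, was higher in lung at 17.7, 33.3 and 20.02 CPM in lung and 13.6, 15.9 and 10.9 CPM in muscle (log2 difference 0.81 ± 0.26 SE, edgeR adjusted p = 0.026), with its highest level in lung library 2 as for Hspa1a. It was not called without lung library 2 (0.49, adjusted p = 0.0702), muscle library 1 (0.0613) or muscle library 3 (0.0941). Dnajc3 of the endoplasmic reticulum was higher too (0.79 ± 0.10 SE).

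Mitochondrial chaperones and proteases were lower in lung for 12 of 13 (median -1.65), 8 of them under every scaling. Hspa9, mitochondrial HSP70, had 65.9, 65.9 and 61.2 CPM in lung and 346, 337 and 443 CPM in muscle (log2 difference -2.54 ± 0.15 SE, edgeR adjusted p = 5.8e-06). Hspd1, HSP60, had 55.3, 47.7 and 49.9 CPM in lung and 160.1, 146 and 195 CPM in muscle (log2 difference -1.71 ± 0.14 SE, edgeR adjusted p = 2.6e-05), and Lonp1, the matrix protease, was lower as well (-1.69 ± 0.16 SE). Of 9 subunits of the cytosolic chaperonin 8 were lower (median -0.911), but only 1, Tcp1 (-1.34 ± 0.12 SE), under every scaling. Of 6 heat shock factor genes 4 were lower in lung and none was higher, against none lower and 2 higher with library size alone. Hsf1, the master factor of the heat response, had 26.8, 33.1 and 29.1 CPM in lung and 43.3, 44.3 and 60.1 CPM in muscle (log2 difference -0.73 ± 0.16 SE, edgeR adjusted p = 0.0046, and 0.33 with library size alone), and Hsf2 had 19.1, 12.3 and 15.9 CPM in lung and 38.2, 36.8 and 46.05 CPM in muscle (log2 difference -1.35 ± 0.18 SE, edgeR adjusted p = 0.00037, and -0.31 with library size alone).

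Over 8 lists of heat shock proteins, co-chaperones, chaperonin and mitochondrial chaperones, 100 genes were tested. TMM scaling called 72 lower in lung and 14 higher, beside 31.5% and 32.3% of all genes. The median log2 difference was -0.87 beside 0.0571 over all genes. Calls held under every scaling for 31 lower and 13 higher, beside 13.2% and 31.5% of all genes. Of the chaperone genes, 10 were called lower by TMM and higher by library size. The make-up of the pool within a library avoids this. Over 39 chaperone genes, grouped by place after their values had been seen and weighted per kb of exon, the endoplasmic reticulum chaperones made up 41.8 ± 1.02% in lung and 17.2 ± 2.22% in muscle (SD, n = 3 each). Small heat shock proteins made up 9.42 ± 1.68% in lung and 28.2 ± 1.11% in muscle, and mitochondrial chaperones 4.59 ± 0.152% in lung and 11.2 ± 0.613% in muscle. Cytosolic HSP90 made up 20.1 ± 2.69% in lung and 15.9 ± 0.90% in muscle, and the cytosolic chaperonin 9.6 ± 0.788% in lung and 12.2 ± 0.622% in muscle. None of these 5 shares overlapped between the tissues. Shares within a library are tied, since a lower share of 1 group raises those of the others, so these are not 5 separate results. Cytosolic HSP70 and HSP110 did overlap, at 14.5 ± 2.75% in lung and 15.3 ± 1.67% in muscle (SD, n = 3 each).

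**Figure D5:**
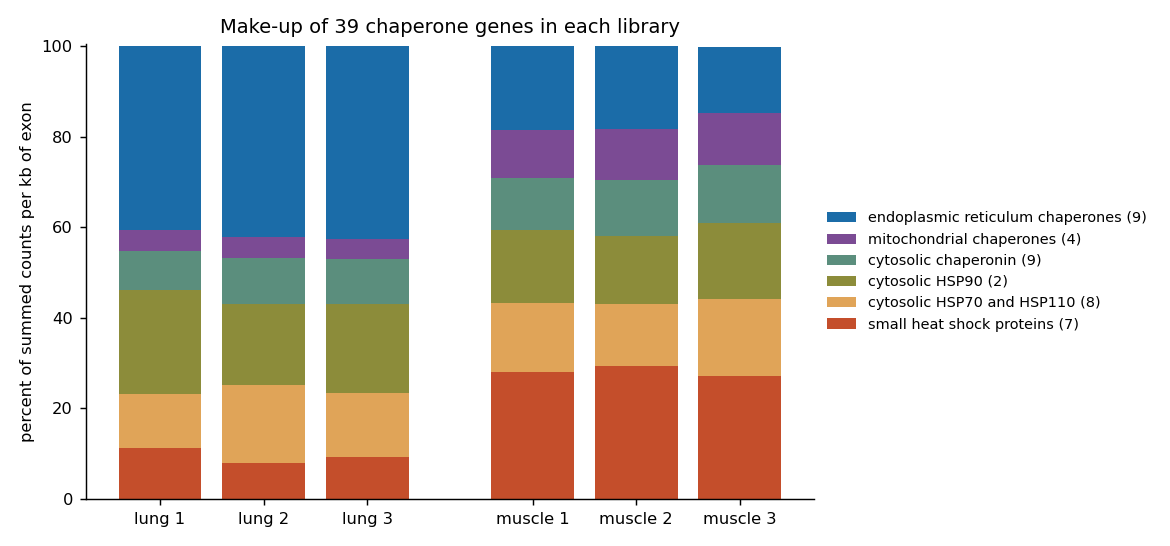
Each bar is 1 library, lung on the left and muscle on the right, and its coloured parts are the percent of summed counts per kb of exon over 39 chaperone genes in 6 groups. The endoplasmic reticulum part is 40.7 to 42.6% in lung and 14.6 to 18.6% in muscle, and the small heat shock protein part is 7.86 to 11.2% in lung and 27.2 to 29.4% in muscle.

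Genes of the endoplasmic reticulum leaned to lung. Of 31 genes 17 were higher in lung and 2 were lower (median 0.487), 15 of the higher calls under every scaling, and none exceeded 2-fold by glmTreat. Pdia3, a disulfide isomerase, had 233, 215 and 218 CPM in lung and 111, 93.1 and 67.9 CPM in muscle (log2 difference 1.29 ± 0.18 SE, edgeR adjusted p = 0.00046), and Pdia4 was higher by a like amount (1.13 ± 0.16 SE). Hspa5, BiP, the reticulum's HSP70, had 269.9, 257 and 241 CPM in lung and 224, 185 and 192 CPM in muscle (log2 difference 0.35 ± 0.12 SE, edgeR adjusted p = 0.037), and was not called without any 1 lung library or without muscle library 1 or 2 (adjusted p = 0.0534 to 0.153). The stress sensors Eif2ak3 (0.85 ± 0.16 SE) and Ern1 (0.63 ± 0.11 SE) were higher in lung. Ddit3, CHOP, which rises under lasting stress, had 7.05, 10.5 and 9.02 CPM in lung and 9.21, 8.70 and 8.44 CPM in muscle, with an edgeR adjusted p of 0.95. Atf4 was lower in lung at 55.2, 68.1 and 50.4 CPM in lung and 102, 104 and 137 CPM in muscle (log2 difference -0.98 ± 0.16 SE, edgeR adjusted p = 0.0012, and 0.07 with library size alone), and so was Derl1 (-0.77 ± 0.10 SE, and 0.25 with library size alone).

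Antioxidant genes went both ways, much as all genes did. Of 26 genes 8 were higher in lung and 10 were lower, beside 32.3% and 31.5% of all genes. With library size alone 13 were higher and 5 lower. Sod2, mitochondrial superoxide dismutase, had 58.7, 60.9 and 63.3 CPM in lung and 389, 384 and 501 CPM in muscle (log2 difference -2.80 ± 0.15 SE, edgeR adjusted p = 4.1e-06), and Prdx3, mitochondrial peroxiredoxin, had 18.6, 19.1 and 19.5 CPM in lung and 149, 149 and 183 CPM in muscle (log2 difference -3.07 ± 0.12 SE, edgeR adjusted p = 1.4e-06). Nqo1, a quinone reductase of the cytosol (-2.31), and the peroxidase genes Gpx4 (-1.40) and Prdx2 (-1.12) were lower too, though only Nqo1 of these 3 was called with library size alone. Sod3, extracellular superoxide dismutase, had 194, 201 and 168 CPM in lung and 37.97, 44.3 and 15.03 CPM in muscle (log2 difference 2.53 ± 0.36 SE, edgeR adjusted p = 0.00053), with muscle library 3 lowest, and Prdx6, a peroxiredoxin with phospholipase activity in surfactant turnover, had 339, 431 and 380.4 CPM in lung and 77.4, 96.5 and 92.5 CPM in muscle (log2 difference 2.11 ± 0.15 SE, edgeR adjusted p = 1.5e-05). Gclc, the catalytic subunit of glutathione synthesis, had 126, 122 and 115 CPM in lung and 21.3, 19.3 and 20.7 CPM in muscle (log2 difference 2.57 ± 0.10 SE, edgeR adjusted p = 1.3e-06), while its partner Gclm had 19.3, 17.3 and 18.6 CPM in lung and 22.5, 20.4 and 22.7 CPM in muscle (adjusted p = 0.073). Keap1, the repressor of NRF2, was lower (-1.50 ± 0.16 SE) and Nfe2l2, NRF2 itself, was higher (0.78 ± 0.13 SE). Hmox1 was higher by a small amount (0.60 ± 0.13 SE), and the metallothionein genes Mt1 and Mt2 were not called.

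Immediate early genes, which respond within minutes to handling, flow and growth signals, were higher in lung for 14 of 25 and lower for 3 (median 0.722), beside 32.3% and 31.5% of all genes. Ier3 had 36.7, 34.03 and 33.9 CPM in lung and 3.48, 3.94 and 4.39 CPM in muscle (log2 difference 3.15 ± 0.13 SE, edgeR adjusted p = 1.6e-06), and Ccn2, a matrix signalling gene, had 79.7, 73.3 and 62.1 CPM in lung and 14.7, 20.6 and 13.004 CPM in muscle (log2 difference 2.15 ± 0.19 SE, edgeR adjusted p = 4.7e-05). Klf2, the shear stress factor of endothelium, had 76.1, 155 and 93.5 CPM in lung and 52.2, 67.02 and 28.5 CPM in muscle (log2 difference 1.13 ± 0.36 SE, edgeR adjusted p = 0.024), highest in lung library 2, and was not called without lung library 2 (adjusted p = 0.092), muscle library 1 (0.0666) or muscle library 3 (0.131). Nr4a1, an orphan receptor induced by contraction, was lower in lung at 42.8, 77.01 and 42.3 CPM in lung and 153, 179 and 220.2 CPM in muscle (log2 difference -1.77 ± 0.26 SE, edgeR adjusted p = 0.00067). Fos was also lower (25.3, 20.6 and 24.7 CPM in lung and 60.7, 47.3 and 25.1 CPM in muscle, log2 difference -0.91 ± 0.29 SE, edgeR adjusted p = 0.026, and 0.06 with library size alone), and muscle library 3 overlapped with lung. The call of Fos ended without any 1 lung library or without muscle library 1 or 2 (adjusted p = 0.0529 to 0.092), and without muscle library 3, 12 genes of the list were higher and 5 were lower. Egr1 (0.77) and Atf3 (0.98) had edgeR adjusted p-values far above 0.05.

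Of 11 glucocorticoid-responsive genes 7 were lower in lung and 1 was higher, and 1 lower call, Fkbp5, held under every scaling. With library size alone 4 were higher and 1 was lower, so the direction of this group rests on the scaling. Without lung library 1, 4 were lower and 2 were higher. Fkbp5, the receptor's own feedback gene, had 14.03, 12.8 and 13.996 CPM in lung and 45.6, 63.7 and 45.4 CPM in muscle (log2 difference -1.92 ± 0.16 SE, edgeR adjusted p = 3.3e-05). Errfi1 was higher in lung (62.9, 115 and 101 CPM in lung and 30.5, 55.6 and 34.1 CPM in muscle, log2 difference 1.22 ± 0.29 SE, edgeR adjusted p = 0.0072), though not without muscle library 3 (adjusted p = 0.0995). Lung library 1 was the lowest of the lung libraries for Per1, Tsc22d3 and Cebpd. Per1, which is also a clock gene, had 48.2, 111 and 104 CPM in lung and 39.5, 77.8 and 112 CPM in muscle. Of 19 clock genes 8 were lower in lung and 1, Ciart, was higher (8.79, 10.1 and 9.04 CPM in lung and 0.946, 1.09 and 2.48 CPM in muscle), against 4 lower and 5 higher with library size alone. The sampling hour is not given in the labels.

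Protein breakdown genes differed sharply, apart from those of the immunoproteasome and class I list. The ubiquitin ligases of muscle wasting were far lower in lung: Trim63, MuRF1, had 1.51, 0.716 and 0.894 CPM in lung and 146, 204 and 229 CPM in muscle (log2 difference -7.54 ± 0.32 SE, edgeR adjusted p = 1.7e-06), and Fbxo32, atrogin-1, had 35.3, 22.4 and 25.9 CPM in lung and 359.9, 537 and 392 CPM in muscle (log2 difference -3.95 ± 0.24 SE, edgeR adjusted p = 7.7e-06). All 8 of that list were called, and Fbxo30 alone was higher in lung (0.44 ± 0.13 SE, not called without lung library 3 or muscle library 1 or 2, adjusted p = 0.0785 to 0.104). All 31 standard proteasome subunits were lower in lung (median -1.47), 24 by over 2-fold and 19 under every scaling. Psmb5, a catalytic subunit, had 17.6, 21.01 and 17.8 CPM in lung and 66.4, 72.6 and 86.9 CPM in muscle (log2 difference -2.004 ± 0.14 SE, edgeR adjusted p = 1.4e-05), and Psmb7, another, had 21.2, 24.6 and 24.95 CPM in lung and 126, 133 and 165 CPM in muscle (log2 difference -2.58 ± 0.14 SE, edgeR adjusted p = 4.5e-06). The immunoproteasome and class I list had 4 of 12 higher in lung and none lower, beside 32.3% and 31.5% of all genes, so its higher share was near that of all genes. Its subunit Psmb9, which takes the place of a standard one, had 12.6, 15.4 and 12.8 CPM in lung and 10.3, 9.24 and 5.91 CPM in muscle (log2 difference 0.68 ± 0.22 SE, edgeR adjusted p = 0.025), and was not called without lung library 2 (adjusted p = 0.0911) or lung library 3 (0.055). Interferon-stimulated genes were higher for 14 of 25 and lower for none (median 0.792), among them Ifitm3 at 68.4, 67.5 and 69.1 CPM in lung and 25.5, 27.8 and 21.8 CPM in muscle.

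Cytosolic ribosomal proteins had small differences whose direction rests on the scaling. Of 80 genes 69 were lower in lung and 2 were higher with TMM (median -0.585), and 2 were lower and 55 were higher with library size alone. Rps2 (-1.64 ± 0.21 SE) and Rps27l (-1.43 ± 0.12 SE) were lower under every scaling.

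The tissue differences at baseline were mostly found again in the heated and recovered mice, which are other libraries of the same tissues. Of the 3126 genes over 2-fold higher in lung at control, 83.9% were so right after heat and 87.4% at recovery, which is 61.0% of the list after heat and 79.0% of the list at recovery. Of the 3014 genes over 2-fold lower, 89.4% were so after heat (70.6% of that list) and 84.1% at recovery (89.7%). None of the control calls was over 2-fold in the opposite direction. At heat 36.6% of 18915 genes were higher in lung and 34.6% were lower, and at recovery 34.3% of 19170 genes were higher and 29.4% were lower.

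The chaperone genes were followed in the same way. Of the 72 chaperone genes lower in lung at control, 63 were lower after heat and 69 at recovery, and none was higher. Of the 14 higher at control, 7 were higher after heat and 8 at recovery, and 2 were lower at recovery. Over all genes called by adjusted p at control, 89% of those lower in lung were lower again after heat and 85% at recovery. For all genes higher in lung these shares were 83.1% and 85.8%. The lower chaperone genes thus recurred about as often as lower genes at large after heat, and the higher ones less often than higher genes at large. Hsp90aa1, higher in lung at control (1.62), had log2 differences of 0.06 after heat, which was not called, and -1.43 at recovery, which was called lower. Dnaja1, another heat-responsive gene, had 0.52 at control (not called without lung library 2, adjusted p = 0.0542), 0.01 after heat (not called) and -2.14 at recovery (called lower). Hspa1a had -0.11 at control, -0.82 after heat, neither called, and -8.41 at recovery (called lower). Hspb6 kept its side, at -5.36, -6.21 and -6.11. Whether the differences at the 3 times differ from each other was not tested.

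Muscle libraries varied more than lung libraries, and muscle library 3 stood apart. Muscle libraries 1 and 2 correlated at 0.983, within the 0.974 to 0.986 of the lung pairs, and each correlated with muscle library 3 at 0.964. The biological coefficient of variation was 0.152 over 16919 genes in lung and 0.258 over 14606 genes in muscle, and the median SD of log2 CPM among genes of at least 20 CPM was 0.0881 in lung and 0.188 in muscle. The genes that varied most in lung were Myh8, Xist, Uty, Eif2s3y and Ddx3y, and in muscle Xist, Ddx3y, Eif2s3y, Uty and Kdm5d. Apart from Myh8 these are X-inactivation and Y-linked genes, which follow the animal's sex. Xist had 0.830, 0.438 and 1260.4 CPM in lung and 0, 0.272 and 851 CPM in muscle.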

How the data were processed

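Total RNA of control lung and muscle was extracted with TRIzol and made into directional NEBNext Ultra libraries, per the labels' protocols. Reads were aligned with STAR 2.7 to GRCm39 and counted with featureCounts, per the submitters' processing notes, and the sources used here do not state the strand setting of the counting. The authors deposited raw read counts per gene for each library, and these counts are the only values used. Of the mitochondrially encoded genes, rows other than mt-Rnr1 and mt-Rnr2 were not analysed here.

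The 3 lung and 3 muscle libraries were fitted together in edgeR 4.0.16 (R 4.3.3, limma 3.58.1) by the robust quasi-likelihood test, after filterByExpr (minimum count 10, minimum total 15) and TMM scaling. Calls used a Benjamini-Hochberg adjusted p under 0.05 over 19511 genes, and glmTreat tested for a difference over 2-fold. Heat and recovery libraries were fitted in the same way, separately. For genes at 0 counts in a tissue, the fold was bounded with a floor of 3 counts over its 3 libraries, or 0.033 CPM in lung and 0.0501 CPM in muscle. Folds against 1 to 3 counts carry exact 95% binomial intervals of the count ratio, and floors and intervals cover counting error only. Exon lengths came from GENCODE M21 by symbol.

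The members and the 53 gene lists (863 genes, 834 of them tested) were chosen with earlier results of these data known. Genes are named by a rule: per direction the 10 most abundant and 5 largest differences over 2-fold without overlap, any stress list member, up to 6 members of other lists by adjusted p with those against their list's direction, both genes of each pair, and the 5 most variable per tissue. Rps2 and Rps27l were named after their values were seen. Alternatives were median-ratio, upper-quartile and no scaling beyond library size, DESeq2 1.42.0, other filters, a non-robust fit, all 18 mouse lung and muscle libraries, a replicate block and each library left out. Some genes of these lists are counted but not reported singly here, and 1 pair is not drawn.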

Additional observations from a re-analysis of the deposited data

How the results depend on the processing

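Scaling set the direction of small differences. With library size alone the calls at control were 12380 higher and 2578 lower in lung, those over 2-fold were 7092 and 1459, those at heat 13528 and 2406, and those at recovery 12347 and 2404. The all-gene median log2 difference was then 1.08, against 0.224 with upper-quartile scaling and 0.153 in the fit of all 18 libraries. Among genes negative with TMM, library size alone gave log2 differences of 0.78 for Gclm, 0.0463 for Hspb1, 0.104 for Hspa8, 0.0627 for Fos, 0.253 for Derl1, 0.325 for Hsf1, 0.0686 for Atf4 and 0.383 for Hsp90ab1, and other small differences changed sign as well. The cause was not tested. Myh8 turned to -10.4 without lung library 1, the lung library that held its counts, and was 3.14 to 3.91 without any other library. Of the 12453 calls at control, 12095 held by DESeq2, 12179 by median-ratio and 11632 by upper-quartile scaling, and 8884 by library size, which put 1058 in the opposite direction.

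Leaving out 1 library gave 5360 to 6697 genes higher and 5510 to 6533 lower in lung at control, and 2767 to 3212 and 2757 to 3102 over 2-fold. The all-gene median was then 0.0424 to 0.0799. At heat these counts were 6327 to 7195 and 5934 to 6568, and at recovery 5419 to 7759 and 5022 to 7062. Of 151 called genes named in the text, 23 lost their call without 1 library or another and 21 moved by over 1.5-fold. Most named genes kept direction and call over the other settings: 2699 of their values did, 99 were weaker, 26 stronger, 38 moved and 9 reversed.

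The libraries share numbers but were not treated as paired. Deviations of same-numbered libraries correlated at 0.0618, 0.194 and 0.15, and each library correlated best with its own number. This is at most a weak hint from the data and not from the design. Deviations are from the mean of their own tissue, so they cancel out within it and some positive correlations must arise. Muscle library 1 correlated at 0.0527 with lung library 2, close to its 0.0618. Both libraries numbered 3 carry Xist, so shared sex and shared animals cannot be told apart. With the replicate number as a block, 5823 genes were higher and 5714 lower in lung at control, 2876 and 2831 by over 2-fold, 6850 and 6504 at heat, and 6117 and 5217 at recovery, and the all-gene median was 0.0772.

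Depth limits genes with few counts in the lower tissue, for which only a bound or a wide interval is given.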
